A study of Mus musculus with 8 samples.

Results

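Mitochondrial ribosomal protein genes encode the protein part of the ribosome that works inside mitochondria. They were taken as every gene whose symbol is Mrpl or Mrps followed by a number and at most 1 letter, with 10 or more counts in 3 or more libraries. 76 symbols of the 23358 in the count table matched the name, and all 76 passed the count limit. RNA-seq counts were used from 8 libraries of mouse hematopoietic stem cells, taken from bone marrow by their Lin-Sca+Kit+CD48-CD150+ surface and not cultured. The groups were 2 libraries with Huwe1 constitutively deleted by Vav-Cre (Huwe1 KO, Vav-Cre), 3 with Huwe1 inducibly deleted by Mx1-Cre (Huwe1 KO, Mx1-Cre) and 3 wild type. Huwe1 encodes a HECT-type ubiquitin ligase, and the comparison asks what its loss does to the RNA of stem cells. The labels give no age or sex, do not say which Cre, if any, or which inducer the wild type mice had, and do not say that each library came from a separate mouse, so the p-values measure the spread between these libraries, which may be technical. The Vav promoter drives Cre throughout the blood lineage, while Mx1-Cre is switched on by interferon signalling in blood and in several other tissues.

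Mitochondrial ribosomes translate the few proteins that mitochondrial DNA encodes, all of them parts of the respiratory chain and the ATP synthase. Their ribosomal RNAs come from mitochondrial DNA, but every protein subunit is encoded in the nucleus, made in the cytosol and imported. About as many subunits descend from the bacterial ribosome as were added later in evolution, and each Mrpl or Mrps name gives the large or small subunit to which the protein was first assigned. Resting hematopoietic stem cells are known to rely little on respiration and to need more mitochondrial activity when they divide or differentiate.

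Of the 76 genes, 49 encode large subunit proteins and 26 small subunit proteins. This count places Mrps18a and Mrps30 in the large subunit, where their proteins are found despite their names. Mrps36 was counted apart, because its protein is now known as a part of the 2-oxoglutarate dehydrogenase complex. 46 of the other genes have a bacterial counterpart and 29 have none. The genes lie on 17 chromosomes.

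A promoter was matched for 67 of the 76 genes. The 250 bases before the annotated start of 3 of them follow, 5′ to 3′, from RefSeq on the mouse build GRCm38.p6. Mrpl2 had the smallest p-value against wild type in the Vav-Cre line, Mrpl18 in the Mx1-Cre line and Mrps18b with both lines together. They lie at chr17:46645971-46646220 (Mrpl2, plus strand, the first of 3 annotated starts), chr17:12916092-12916341 (Mrpl18, minus strand) and chr17:35916441-35916690 (Mrps18b, minus strand). Capitals mark matches, on either strand, to the motifs described after them.
Mrpl2: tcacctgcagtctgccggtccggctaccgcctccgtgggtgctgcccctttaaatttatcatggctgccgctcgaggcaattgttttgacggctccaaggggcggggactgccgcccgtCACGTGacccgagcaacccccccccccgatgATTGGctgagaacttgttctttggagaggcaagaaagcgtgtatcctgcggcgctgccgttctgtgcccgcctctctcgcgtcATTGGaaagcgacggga
Mrpl18: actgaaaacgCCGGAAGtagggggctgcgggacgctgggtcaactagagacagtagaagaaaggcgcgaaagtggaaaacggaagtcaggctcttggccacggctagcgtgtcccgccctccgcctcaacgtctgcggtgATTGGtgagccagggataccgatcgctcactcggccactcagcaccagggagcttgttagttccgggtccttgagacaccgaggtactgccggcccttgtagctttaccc
Mrps18b: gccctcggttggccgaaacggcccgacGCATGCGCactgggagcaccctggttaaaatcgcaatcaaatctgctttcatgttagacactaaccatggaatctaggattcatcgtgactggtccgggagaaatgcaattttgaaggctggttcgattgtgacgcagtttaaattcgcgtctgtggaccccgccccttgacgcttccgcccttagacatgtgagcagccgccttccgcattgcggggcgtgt
The capitals in Mrpl2 are an E-box and, in the reverse strand's letters, 2 CCAAT boxes. Those in Mrpl18 are an ETS motif and a CCAAT box, and those in Mrps18b an NRF1 motif.

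The motifs were searched on both strands of the same 250 bases in all genes with a promoter. A gene was counted if any of its annotated promoters held the motif. The 67 members had 73 promoters and the 10327 tested genes 13129, so tested genes had more promoters each on average. The NRF1 core GCATGCGC, bound by nuclear respiratory factor 1, a regulator of many nuclear genes for mitochondrial proteins, was in the promoters of 8 of the 67 members (11.9%). It was in 4.88% of the 10327 tested genes with a promoter and in 2.56% of all 27025 genes with one. The 8 were Mrpl9, Mrpl10, Mrpl17, Mrpl22, Mrpl32, Mrpl33, Mrpl39 and Mrps18b. The ETS motif CCGGAAG, read by factors such as GABPA, was in 17 members (25.4%), against 14.7% of tested and 7.83% of all genes. The YY1 core AAGATGGC was in 4 members (5.97%), against 2.36% of tested and 1.83% of all genes. The other 3 motifs were no commoner than in tested genes. The E-box CACGTG, the site of Myc and its relatives, was in 7.46% of members and 9.68% of tested genes. CCAAT was in 37.3% and 40.3% of them, and the TATA box TATAAA in 7.46% and 8.36%. The median GC content was 58.4% in members and 59.2% in tested genes. These shares are descriptions of letters in the window, with no test, and show neither binding nor its absence.

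The gene neighbourhoods were also described, with no test. 17 members (22.4%) had another coding gene starting within 1000 bases upstream on the opposite strand, which holds for 7.03% of all 19298 coding genes of the count table. That share includes genes too low to be tested here, and it was not taken for tested genes alone or for other gene sets. Such head-to-head pairs included Mrps12 with Sars2, the mitochondrial seryl-tRNA synthetase, and Mrps27 with Ptcd2, a mitochondrial RNA processing protein. Mrpl49 was paired with Fau, which encodes a cytosolic ribosomal protein. 19 members also overlap another gene of the count table, among them Mrpl2 with Klc4, Mrpl18 with Tcp1, Mrpl37 with Cyb5rl, Mrps27 with 6430562O15Rik and Mrps25 with Nr2c2. The libraries carry no strand information, so counts near such overlaps are uncertain. Mrpl23, Mrpl27, Mrpl48 and Mrps36 have pseudogenes named after them, with which reads may be shared.

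The libraries held 28689765 to 33202926 counts each, with 14601 to 15554 genes detected. Huwe1 itself had 445 and 490.2 TMM-scaled CPM (counts relative to the library's total, with the total scaled by edgeR's trimmed mean of M-values) in the Vav-Cre libraries and 444, 399 and 412 CPM in the Mx1-Cre libraries. It had 434, 398 and 433 CPM in the wild type libraries. A count over the whole gene does not separate the deleted exons from the rest, so it does not check the genotype labels. The stem cell marker Kit was at 982 to 2344 CPM in all libraries. The T cell marker Cd3e was at 0 in 7 of them, while the T and NK cell markers summed to 17.9 to 31.8 CPM per library. Markers of myeloid cells varied more between libraries and are given below with the other cell type markers. The stem cell gene Fgd5 was lower in both knockout lines (adjusted p = 0.0376 in Vav-Cre and 0.000264 in Mx1-Cre, edgeR), with 17.2 and 15.2 CPM in Vav-Cre, 3.24, 4.06 and 1.70 CPM in Mx1-Cre, and 50.01, 59.1 and 59.4 CPM in wild type.

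All 76 mitochondrial ribosomal protein genes were detected in every library, from 20 to 6254 counts per gene and library. Their level averaged over the 8 libraries had a median of 53.9 CPM, against 27.4 CPM for all 14086 tested genes, and 72 of them stayed above 10 CPM in each library. Their biological coefficient of variation, the spread between libraries of a group beyond counting error, had a median of 16.3%, against 21.1% for all tested genes. Fold changes of these genes were therefore estimated with smaller errors than those of most genes.

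Per kilobase of coding sequence, the levels ranged widely between the 76 genes, including Mrps36, which was counted apart. Mrps14, a small subunit protein with a bacterial counterpart, was highest at 459.7 CPM per coding kilobase, followed by Mrpl33 at 396, Mrpl36 at 369.7, Mrpl18 at 321 and Mrps17 at 315. The lowest were Mrpl23 at 2.27, Mrps36 at 8.43, Mrps30 at 11.9, Mrps26 at 18.2 and Mrpl38 at 21.2 CPM per coding kilobase. Counts over the whole gene were divided by coding length alone, so reads from untranslated parts of the transcript raise these values. Per kilobase of the longest annotated transcript, the levels ran from 1.59 to 167 CPM with a median of 37.4 CPM. By counts alone the 5 highest were Mrpl28, Mrps14, Mrpl18, Mrpl17 and Mrpl50, and the 5 lowest Mrpl23, Mrps36, Mrps26, Mrps24 and Mrps30. Mrpl23 encodes a protein at the rim of the peptide exit tunnel. Its counts were 20 and 44 in Vav-Cre, 21, 26 and 25 in Mx1-Cre, and 43, 54 and 52 in wild type.

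No mitochondrial ribosomal protein gene changed past the threshold in either knockout line. With edgeR's quasi-likelihood test and Benjamini-Hochberg adjustment over all 14086 genes, 0 of 76 had an adjusted p under 0.05 in the Vav-Cre line, where 0.511% of all tested genes did. The count was also 0 of 76 in the Mx1-Cre line, against 2.49% of all genes, and 0 of 76 with both lines averaged, against 2.65%. Between the lines it was 0 of 76, against 0.17%. At an unadjusted p under 0.05 the counts were 5 in the Vav-Cre line, all lower, against 13.4% of all genes in either direction and 7.64% lower. They were 0 in the Mx1-Cre line, against 16.6%, and 0 with both lines, against 16.5%. DESeq2, limma-voom and limma-trend also called 0 in these 3 comparisons.

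These data bound the changes more closely than they do for most genes. In the Vav-Cre line the 95% interval of the fold change lay within 2-fold either way for 69 of the 76 genes, against 59.4% of all tested genes. In the Mx1-Cre line it did for 74, against 62.1%, with both lines for 73, against 66.7%, and between the lines for 69, against 58.9%. The 7 genes with wider intervals in the Vav-Cre line were Mrpl23, Mrpl38, Mrpl52, Mrps6, Mrps12, Mrps24 and Mrps36. In the Mx1-Cre line they were Mrpl23 and Mrps36. For these genes the interval includes a 2-fold change.

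**Figure D1:**
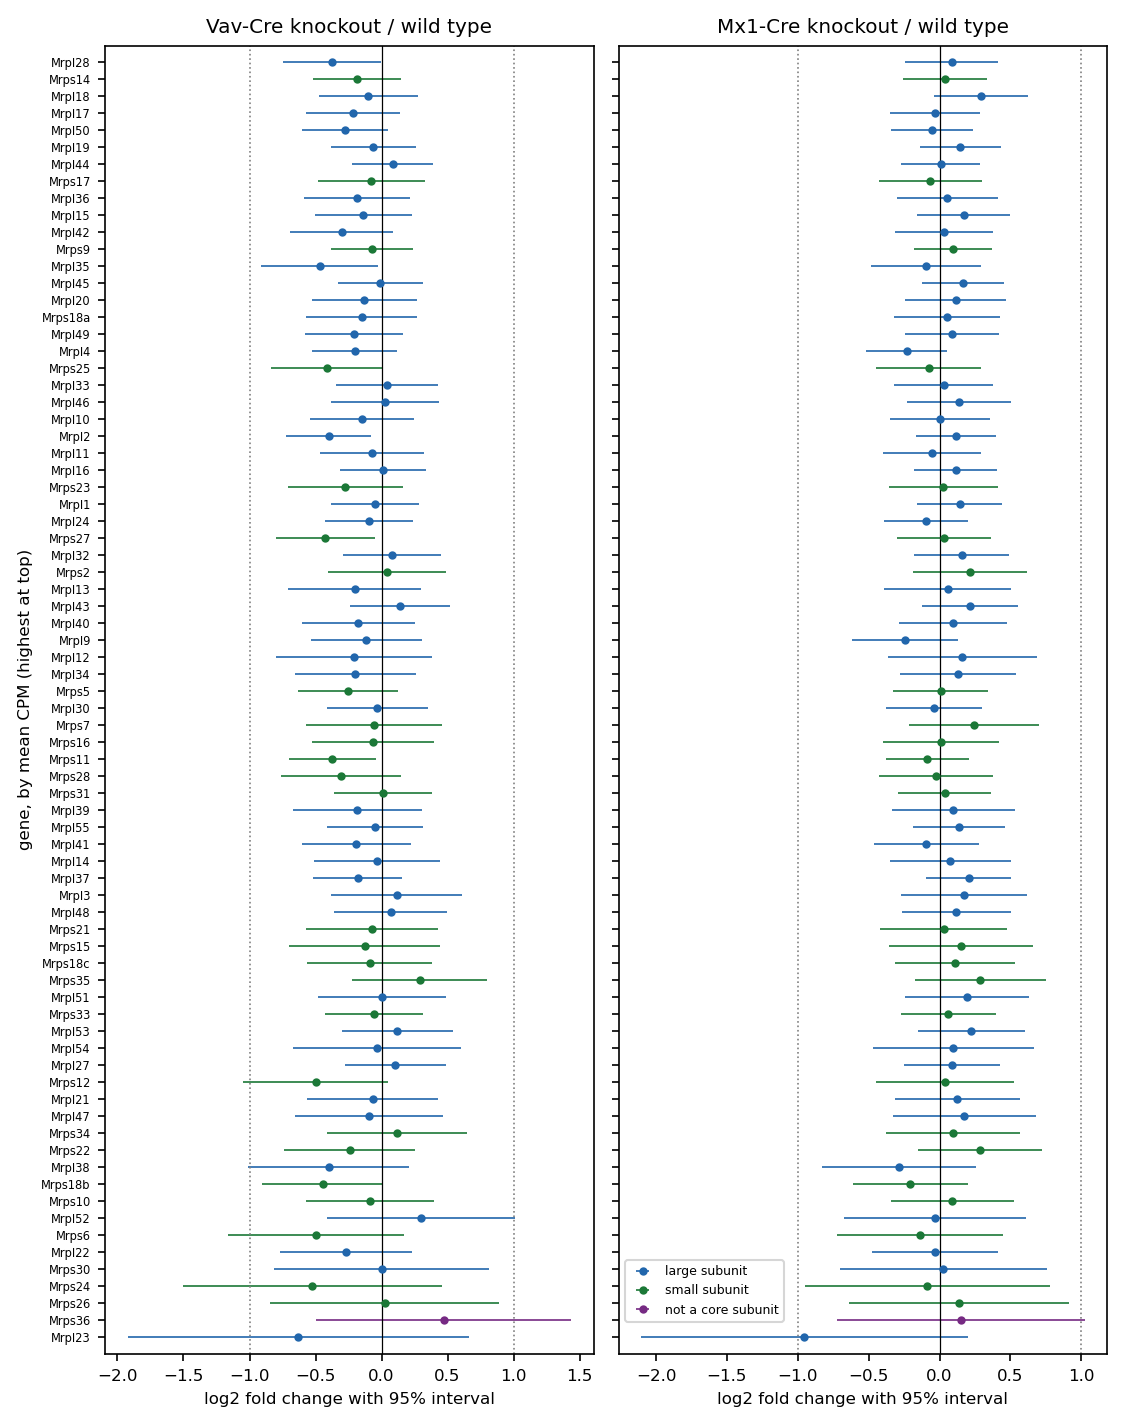
Log2 fold change of each of the 76 genes (points) with its 95% interval (lines) in Vav-Cre and Mx1-Cre knockout against wild type, genes from most to fewest counts down the page, with dotted lines at 2-fold. In the Vav-Cre panel 58 of the 76 points lie below 0 and in the Mx1-Cre panel 56 lie above it, and the intervals are widest for the genes with few counts at the foot.

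In the Vav-Cre line the genes leaned to lower values. 58 of 76 had a fold change below 0, against 51% of all tested genes. The median was -0.10 on the log2 scale, against -0.01 for all tested genes. Without Vav-Cre 2, 32 genes were above 0 in place of 18 and the median was -0.03, and without wild type 2 they were 26 and -0.05. Without Vav-Cre 1 they were 13 and -0.22, and without wild type 1 they were 7 and -0.20. The 5 with an unadjusted p under 0.05 were Mrpl2, Mrps11, Mrps27, Mrpl35 and Mrpl28. In 14 genes (18.4%) both Vav-Cre libraries were below all 3 wild type libraries, a share near the 17.1% of all genes. In 1 gene, Mrps35 (1.32%), both were above, a smaller share than the 15.6% of all genes.

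Mrpl2, the counterpart of a core bacterial protein that holds the large ribosomal RNA near the peptidyl transferase centre, had 51.8 and 59.3 CPM in Vav-Cre and 77.3, 76.6 and 84.1 CPM in Mx1-Cre. In wild type it had 72.4, 78.7 and 68.7 CPM. Both Vav-Cre libraries were below all 6 others. Relative to wild type its log2 fold change was -0.40 ± 0.14 (SE, adjusted p = 0.258, edgeR) in Vav-Cre and 0.11 ± 0.13 (adjusted p = 0.722) in Mx1-Cre.

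Mrps11, a protein of the small subunit platform, had 45.1 and 39.7 CPM in Vav-Cre, 49.5, 52.8 and 52.9 CPM in Mx1-Cre, and 54.8, 55.9 and 53.9 CPM in wild type. All 5 knockout libraries were below the 3 wild type libraries. The fold change was -0.37 ± 0.15 in Vav-Cre (adjusted p = 0.302, edgeR) and -0.09 ± 0.13 in Mx1-Cre (adjusted p = 0.808). With Mrpl23 it was 1 of 2 genes in which all knockout libraries were lower, against 7.28% of all genes.

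Mrps27, a small subunit protein with no bacterial counterpart, had 60.04 and 45.6 CPM in Vav-Cre, 72.4, 79.7 and 65.1 CPM in Mx1-Cre, and 76.6, 68.2 and 68.2 CPM in wild type. Mrpl28, the gene with the most counts, had 167 and 118 CPM in Vav-Cre, 188, 195 and 205 CPM in Mx1-Cre, and 169.65, 200.2 and 184 CPM in wild type. In both genes the 2 Vav-Cre libraries were the lowest of all 8, and Vav-Cre 2 was well below Vav-Cre 1. Their fold changes in Vav-Cre were -0.43 ± 0.17 for Mrps27 (adjusted p = 0.303, edgeR) and -0.38 ± 0.17 for Mrpl28 (adjusted p = 0.366). Without Vav-Cre 2 they were -0.24 and -0.14.

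Mrpl35 had 91.6 and 61.1 CPM in Vav-Cre, 91.6, 90.9 and 114 CPM in Mx1-Cre, and 95.01, 119.7 and 102 CPM in wild type. Vav-Cre 1 lay within the Mx1-Cre range and below wild type, and Vav-Cre 2 was the lowest of all. The fold change in Vav-Cre was -0.47 ± 0.20 (adjusted p = 0.340, edgeR), and -0.20 without Vav-Cre 2. Mrps12, whose protein lies at the decoding centre, had 27.3 and 22.2 CPM in Vav-Cre, 28.9, 32.3 and 46.7 CPM in Mx1-Cre, and 30.01, 42.2 and 32.9 CPM in wild type. Its fold change in Vav-Cre was -0.50 ± 0.25 (adjusted p = 0.419, edgeR), and its interval reached past 2-fold.

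**Figure D2:**
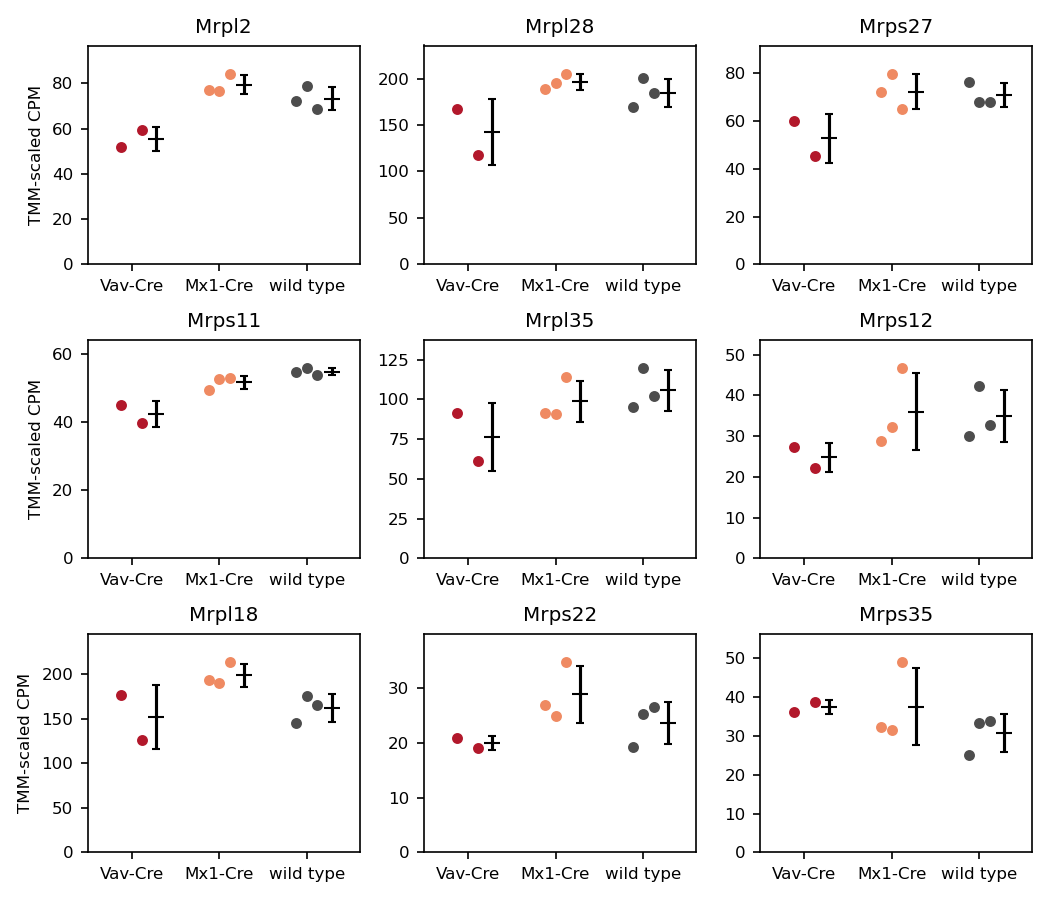
TMM-scaled CPM of 9 genes in each library (points) for Vav-Cre, Mx1-Cre and wild type, with the group mean and SD (black bars) and axes that start at 0. In Mrpl2 the Vav-Cre libraries (51.8 and 59.3 CPM) lie below the other 6, while in Mrpl35 and Mrpl18 the 2 Vav-Cre libraries differ more from each other.

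On the higher side of the Vav-Cre line, Mrps35, a small subunit protein with no bacterial counterpart, had 36.2 and 38.8 CPM in Vav-Cre, 32.1, 31.4 and 49.0 CPM in Mx1-Cre, and 25.1, 33.2 and 33.9 CPM in wild type. The fold change was 0.29 ± 0.23 (adjusted p = 0.657, edgeR). The next smallest p-values on that side were those of Mrps36, Mrpl52, Mrpl43 and Mrpl53, with log2 fold changes of 0.47, 0.30, 0.14 and 0.12 and adjusted p-values of 0.710 to 0.857 (edgeR). Mrps36 was at 0.02 without Vav-Cre 1 and Mrpl52 at -0.04 without Vav-Cre 2. Without wild type 1, Mrpl52 was at 0.16, Mrpl43 at 0.03 and Mrpl53 at 0.05, and without Vav-Cre 1 Mrpl53 was at 0.06.

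In the Mx1-Cre line the lean was the other way and also rested on few libraries. 56 of 76 genes had a fold change above 0, against 51.3% of all tested genes, and the median was 0.08, against 0.01 for all tested genes. The count was 43 with upper quartile scaling and 38 with scaling by library totals. It was 34 with limma-trend and 29 with limma-voom, where the median was -0.01 and -0.05. Without Mx1-Cre 3 the count was 29 and the median -0.06, and without wild type 1 they were 31 and -0.02.

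Mrpl18, a protein of the central protuberance of the large subunit, had the smallest unadjusted p in the Mx1-Cre line. It had 177 and 126 CPM in Vav-Cre, 193, 190.2 and 214 CPM in Mx1-Cre, and 146, 176 and 166 CPM in wild type. The Mx1-Cre libraries lay above all wild type libraries, as they also did in Mrpl37 and Mrpl45 (3 genes, against 10.9% of all tested genes). The log2 fold change of Mrpl18 was 0.29 ± 0.15 (adjusted p = 0.368, edgeR) in Mx1-Cre and -0.10 ± 0.17 (adjusted p = 0.866) in Vav-Cre.

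Mrpl37, a large subunit protein with no bacterial counterpart, had 39.3 and 38.6 CPM in Vav-Cre, 48.2, 49.0 and 55.7 CPM in Mx1-Cre, and 43.2, 45.2 and 44.1 CPM in wild type. The 3 groups did not overlap, with wild type in the middle. Its fold change was 0.21 ± 0.14 in Mx1-Cre (adjusted p = 0.496, edgeR) and -0.18 ± 0.15 in Vav-Cre (adjusted p = 0.677).

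3 genes lay lower in all Mx1-Cre than in all wild type libraries, Mrpl4, Mrpl23 and Mrps11, against 14.8% of all tested genes. Mrpl4, a protein that lines the exit tunnel, had 83.8 and 70.3 CPM in Vav-Cre, 70.9, 77.6 and 78.2 CPM in Mx1-Cre, and 82.2, 94.04 and 89.8 CPM in wild type. Its fold change was -0.23 ± 0.13 in Mx1-Cre (adjusted p = 0.415, edgeR) and -0.20 ± 0.14 in Vav-Cre (adjusted p = 0.603). Mrpl23 had the lowest fold change of the set in Mx1-Cre, -0.95 ± 0.52 (adjusted p = 0.400, edgeR), from 21 to 26 counts per knockout library. Mrpl9 and Mrpl38 were at -0.24 ± 0.17 and -0.29 ± 0.24 in Mx1-Cre, and neither passed the test (adjusted p = 0.526 and 0.620, edgeR).

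With both knockout lines averaged, 39 genes were below and 37 above 0, against 50% of all tested genes each way, and the median was -0.02, against 0.00 for all tested genes. The number above 0 was 26 with upper quartile scaling and 18 with library totals as scaling, with limma-trend and with limma-voom. In 0 genes were all knockout libraries above all wild type libraries, against 4.41% of all tested genes. Mrps18b had the smallest unadjusted p, with 21.5 and 17.7 CPM in Vav-Cre, 19.7, 23.5 and 26.1 CPM in Mx1-Cre, and 25.1, 29.6 and 25.3 CPM in wild type. The highest Mx1-Cre library overlapped wild type. The fold change over both lines was -0.32 ± 0.16 (adjusted p = 0.363, edgeR). Mrps18b is 1 of 3 related genes that mammals carry for the bacterial protein S18, and the 3 proteins sit at different places in the ribosome. Mrps18c was at 0.01 ± 0.17 and Mrps18a at -0.05 ± 0.15 in the same comparison (adjusted p = 0.988 and 0.924, edgeR).

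The other subunits chosen for their known roles also stayed under the threshold. Mrpl12, the stalk protein that recruits translation factors, had 51.2 and 48.3 CPM in Vav-Cre, 62.8, 43.3 and 86.4 CPM in Mx1-Cre, and 45.8, 68.2 and 58.3 CPM in wild type, and its highest value, in Mx1-Cre 3, was far above the next in that line. Mrps5, at the messenger RNA channel, averaged 47.0 ± 5.88 CPM in Vav-Cre (SD, n = 2), 56.4 ± 7.59 CPM in Mx1-Cre and 56.1 ± 3.11 CPM in wild type (n = 3 each). Mrps30 averaged 15.7 ± 3.64 CPM in Vav-Cre, 16.01 ± 6.84 CPM in Mx1-Cre and 15.7 ± 4.63 CPM in wild type. Mrpl41 averaged 43.5 ± 0.836 CPM in Vav-Cre, 46.6 ± 7.60 CPM in Mx1-Cre and 49.7 ± 5.82 CPM in wild type. Mrps36, not a ribosomal subunit, had 3.99 and 2.29 CPM in Vav-Cre, 1.88, 2.50 and 3.16 CPM in Mx1-Cre, and 2.18, 2.63 and 1.99 CPM in wild type, and Vav-Cre 1 was the highest library.

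The difference between the lines was tested directly, as Vav-Cre minus Mx1-Cre. 66 of 76 genes were lower in Vav-Cre, against 49.3% of all tested genes, and the median difference was -0.19 on the log2 scale, against 0.01 for all tested genes. With library totals as scaling, 18 genes were above 0 in place of 10. 6 had an unadjusted p under 0.05, against 13.3% of all genes, and all 6 were lower in Vav-Cre, against 5.96%. The 6 by edgeR were Mrpl2, Mrpl28, Mrps27, Mrpl37, Mrps22 and Mrpl18. DESeq2 had 7 at that limit. In 16 genes both Vav-Cre libraries were below all 3 Mx1-Cre libraries (12% of all genes), and in 0 above (13.8%).

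Mrpl2 had the smallest p of this comparison, with a difference of -0.51 ± 0.15 (95% interval -0.84 to -0.19, adjusted p = 0.190, edgeR). DESeq2 called this gene alone among the 76, at -0.53 ± 0.16 with an adjusted p of 0.0345. Its adjusted p ran from 0.0345 to 0.465 over all 19 alternatives. Mrps22, whose human counterpart is mutated in a respiratory chain disease, had 20.9 and 19.1 CPM in Vav-Cre, 26.9, 24.9 and 34.7 CPM in Mx1-Cre, and 19.2, 25.2 and 26.5 CPM in wild type. Its difference was -0.53 ± 0.22 (adjusted p = 0.353, edgeR). Mrpl28, Mrps27, Mrpl37 and Mrpl18 had differences of -0.46, -0.46, -0.39 and -0.39, with adjusted p-values of 0.281 to 0.356. Without Vav-Cre 2 the differences were -0.23 for Mrpl28, -0.27 for Mrps27 and -0.17 for Mrpl18, and without Vav-Cre 1 they were -0.74, -0.67 and -0.66 in that order. On the higher side Mrpl52, Mrps36, Mrpl9, Mrpl23 and Mrpl44 were at 0.33, 0.32, 0.13, 0.32 and 0.08, with adjusted p-values of 0.721 to 0.868. Signs turned with single libraries, to -0.004 for Mrpl52 and -0.24 for Mrpl23 without Vav-Cre 2 and to -0.13 for Mrps36 without Vav-Cre 1.

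The count of lower genes between the lines moved with single libraries. Without Mx1-Cre 3, 32 of 76 genes were above 0 in place of 10, and the median difference was -0.05. Without Vav-Cre 2 it was -0.09 and without Vav-Cre 1 it was -0.31. Against wild type, the Vav-Cre median was -0.03 without Vav-Cre 2 and -0.22 without Vav-Cre 1.

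**Figure D3:**
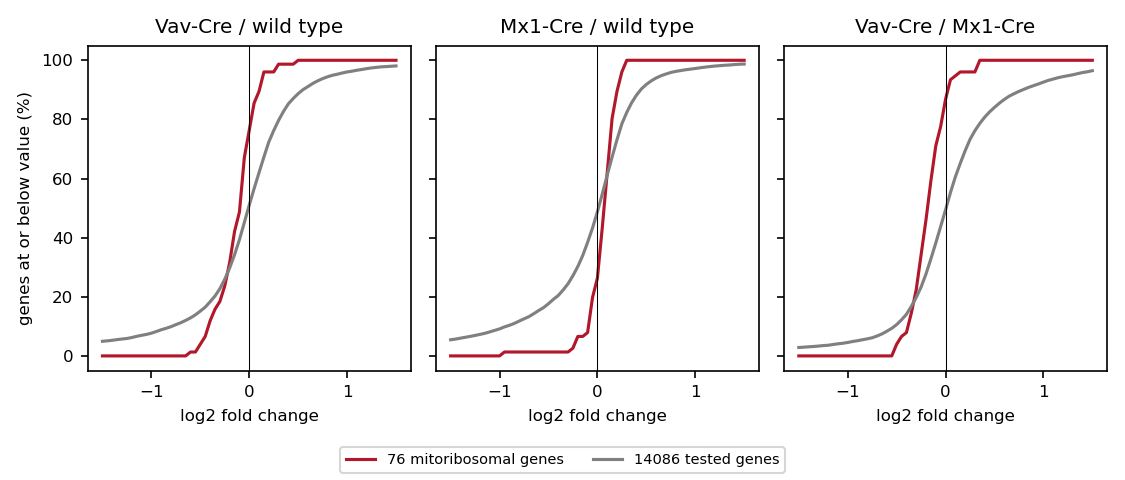
Cumulative share of genes (%) at or below each log2 fold change, for the 76 mitochondrial ribosomal protein genes (red) and all tested genes (grey), in 3 comparisons. The red curves cross 0 at 76.3% in Vav-Cre against wild type, 26.3% in Mx1-Cre against wild type and 86.8% in Vav-Cre against Mx1-Cre.

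The subunits and evolutionary classes of the ribosome had similar medians, and their differences were not tested. In Vav-Cre against wild type the median was -0.10 for the 49 large subunit genes and -0.11 for the 26 small subunit genes. In Mx1-Cre they were 0.09 and 0.04, and between the lines -0.18 and -0.23. The summed CPM of the large subunit genes was 2.52 and 2.61 times that of the small subunit genes in Vav-Cre, 2.48 to 2.59 times in Mx1-Cre and 2.41 to 2.56 times in wild type. Genes with a bacterial counterpart had a median of -0.11 in Vav-Cre, where 6 of 46 were above 0. Those without one had -0.06, with 11 of 29 above 0. No gene of any class was called.

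Libraries of the same group differed in the level of the whole set. Expressed as log2 CPM minus each gene's mean over all 8 libraries, the 76 genes had a median of -0.005 in Vav-Cre 1 and -0.22 in Vav-Cre 2. In Mx1-Cre 1 and 2 it was -0.04 each, and 0.30 in Mx1-Cre 3. In wild type 1 it was -0.16, in wild type 2 it was 0.14 and in wild type 3 it was 0.06. In Mx1-Cre 3, 73 of 76 genes were above their own mean, and in wild type 2, 68 were. In Vav-Cre 2 only 10 were, and in wild type 1 only 14.

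The summed share of counts showed the same order of libraries. The 76 genes took 0.461 and 0.404% of counts in Vav-Cre, 0.450, 0.444 and 0.540% in Mx1-Cre, and 0.436, 0.524 and 0.492% in wild type. The means were 0.432 ± 0.0407% in Vav-Cre (SD, n = 2), 0.478 ± 0.0539% in Mx1-Cre and 0.484 ± 0.0445% in wild type (n = 3 each), and the groups overlapped.

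**Figure D4:**
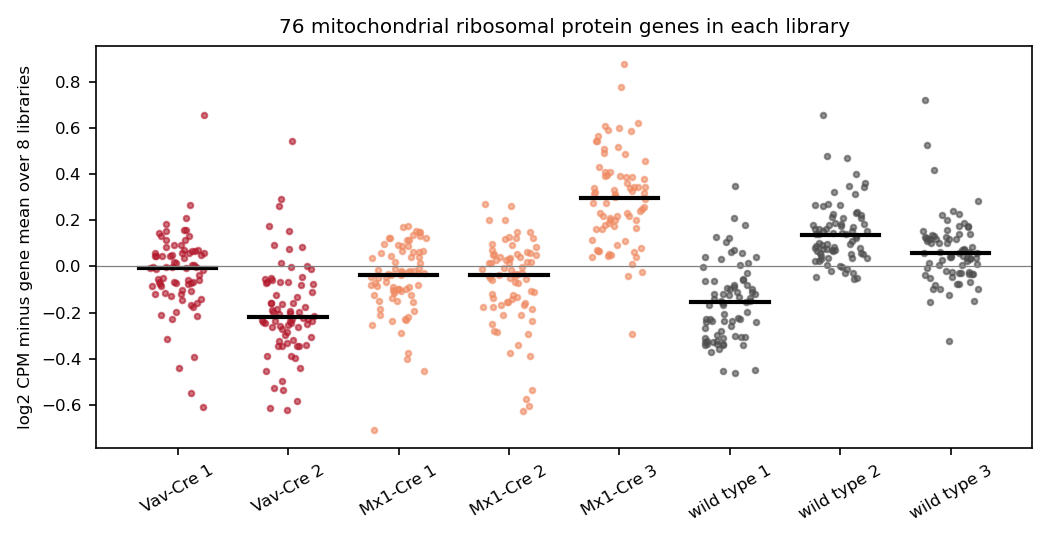
Log2 CPM of each of the 76 genes minus its mean over the 8 libraries (points, spread sideways for view) with the median of each library (black bar), for Vav-Cre (red), Mx1-Cre (orange) and wild type (grey). The median is highest in Mx1-Cre 3 (0.30) and lowest in Vav-Cre 2 (-0.22), and the 3 wild type libraries run from -0.16 to 0.14.

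Other short, abundant genes moved with them in part. The 74 respiratory chain and ATP synthase genes, whose proteins join those made by the mitochondrial ribosome, had a median deviation of 0.38 in Mx1-Cre 3, -0.31 in wild type 1 and -0.21 in Vav-Cre 2. The 76 cytosolic ribosomal protein genes were at 0.30 in Mx1-Cre 3 and -0.29 in wild type 1, but at 0.09 in Vav-Cre 2. They were also at -0.32 in Mx1-Cre 2, where the mitochondrial ribosomal protein genes were at -0.04. All tested genes with a transcript of up to 1 kb were at 0.17 in Mx1-Cre 3, -0.17 in wild type 1 and 0.01 in Vav-Cre 2. The members have a median transcript length of 1284 bases, against 3003 for all tested genes. The part of transcript length or RNA quality in these library differences was not tested.

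**Figure D5:**
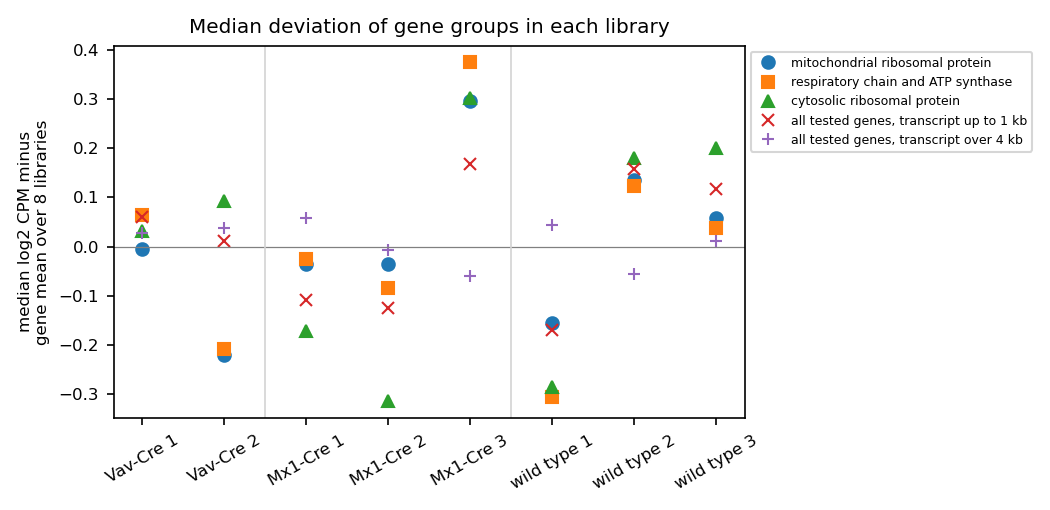
Median of log2 CPM minus the gene's mean over 8 libraries, for 5 sets of genes in each library of Vav-Cre, Mx1-Cre and wild type. Mitochondrial ribosomal protein and respiratory chain genes are high together in Mx1-Cre 3 (0.30 and 0.38) and low together in Vav-Cre 2 (-0.22 and -0.21), where cytosolic ribosomal protein genes are not low (0.09).

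Cell cycle and cell type markers varied between the same libraries. The 8 cycling cell markers summed to 3127 and 1655 CPM in Vav-Cre, 3829, 3291 and 3672 CPM in Mx1-Cre, and 2448, 2459 and 2491 CPM in wild type. Vav-Cre 2 was thus lowest in both cycling markers and mitochondrial ribosomal protein genes, while wild type 1 and 2 had like sums of cycling markers and medians of -0.16 and 0.14. The 10 stem cell markers summed to 5074.9 to 5410.0 CPM in Vav-Cre, 3280.1 to 6077 CPM in Mx1-Cre and 4990.4 to 5947 CPM in wild type, none of them at 0. The mast cell and basophil markers were highest in Vav-Cre 2, at 241 CPM against 10.4 to 41.2 CPM elsewhere. Of those 5, 3 were above 0 and 2 below 0 in Vav-Cre, against 49% and 51% of all genes. Fcer1a was called higher in Vav-Cre (adjusted p = 0.0376, edgeR), against 0.511% of all genes called. With both lines edgeR called Cpa3 and Fcer1a higher, against 2.65%, and in Mx1-Cre it called 0 of the 5, against 2.49%. Myeloid progenitor markers summed to 160 and 390 CPM in Vav-Cre, 168 to 218 CPM in Mx1-Cre and 447 to 722 CPM in wild type. Of these 6, edgeR called Mpo lower in Vav-Cre, and Mpo and Csf3r in Mx1-Cre, against 0.511% and 2.49% of all genes. Neutrophil marker sums ran from 6.59 CPM in Vav-Cre 1 to 1078 CPM in wild type 3. Erythroid sums ran from 15.2 to 251 CPM and megakaryocyte sums from 311 to 861 CPM. The part of these markers in the results was not tested. In such bulk samples fewer cells of a type and less RNA per cell cannot be told apart.

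Subunits of the same particle with names outside the Mrpl and Mrps pattern were also mostly lower. All 7 (Dap3, Ptcd3, Chchd1, Aurkaip1, Gadd45gip1, Ict1 and Mrp63) had a fold change below 0 in Vav-Cre, with a median of -0.30, against 51% of all genes below 0. 0 of 7 passed the test (edgeR), and 2 were lower at an unadjusted p under 0.05, against 7.64% of all genes. In Mx1-Cre 5 of the 7 were below 0 with a median of -0.07, against 48.7% of all genes, while 56 of the 76 members were above 0. Aurkaip1, a small subunit protein, had 90.9 and 83.6 CPM in Vav-Cre, 98.97, 101.4 and 113 CPM in Mx1-Cre, and 106, 128 and 132 CPM in wild type. Both Vav-Cre libraries were the lowest of all. The fold change in Vav-Cre was -0.48 ± 0.15 (adjusted p = 0.196, edgeR). Mrp63 had 33.7 and 31.95 CPM in Vav-Cre, 37.1, 44.4 and 47.0 CPM in Mx1-Cre, and 45.8, 48.6 and 41.9 CPM in wild type (-0.47 ± 0.17 in Vav-Cre, adjusted p = 0.263, edgeR).

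Gadd45gip1, a large subunit protein, showed the widest gap between the lines, with 12.02 and 13.05 CPM in Vav-Cre, 19.9, 17.4 and 38.5 CPM in Mx1-Cre, and 15.1, 23.2 and 20.9 CPM in wild type. The difference of the lines was -1.01 ± 0.35 (adjusted p = 0.260, edgeR), and the highest value was again in Mx1-Cre 3.

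The genes around mitochondrial translation gave no call either. By edgeR, 0 of 15 translation factors, 0 of 25 assembly factors, 0 of 20 aminoacyl-tRNA synthetases, 0 of 20 genes of mitochondrial transcription and RNA processing and 0 of 12 regulators passed in any of the 4 comparisons. At an unadjusted p under 0.05, the 25 assembly factors had 5 lower and 0 higher in Vav-Cre, against 7.64% of all genes lower. They had 0 in Mx1-Cre, against 16.6% of all genes, and 3 lower with both lines, against 16.5% in either direction. The medians in Vav-Cre were -0.19 for translation factors, -0.01 for assembly factors and -0.12 for synthetases. The 76 cytosolic ribosomal protein genes also had 0 calls, with medians of -0.01 in Vav-Cre and -0.10 in Mx1-Cre. The 74 respiratory chain and ATP synthase genes had 0 calls, with -0.02 and 0.15.

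Among these neighbours, 4 were picked after their values were seen. Mars2, the mitochondrial methionyl-tRNA synthetase, had 11.3 and 15.6 CPM in Vav-Cre, 27.3, 23.3 and 25.6 CPM in Mx1-Cre, and 18.1, 24.3 and 24.6 CPM in wild type (Vav-Cre minus Mx1-Cre -0.92 ± 0.23, adjusted p = 0.168, edgeR). Rnmtl1, a methyltransferase of the mitochondrial large ribosomal RNA, had 14.3 and 18.04 CPM in Vav-Cre, 18.6, 19.05 and 28.5 CPM in Mx1-Cre, and 25.7, 27.9 and 27.1 CPM in wild type. Nrf1, which encodes nuclear respiratory factor 1, had 102 and 107 CPM in Vav-Cre, 122, 120.2 and 117 CPM in Mx1-Cre, and 99.9, 84.0 and 80.1 CPM in wild type. All 5 knockout libraries were above wild type in Nrf1, as in 4.41% of all tested genes. Its fold change was 0.45 ± 0.12 in Mx1-Cre (adjusted p = 0.0982, edgeR) and 0.25 ± 0.14 in Vav-Cre (adjusted p = 0.474). Of the 12 regulators, 9 were above 0 in Mx1-Cre and 7 in Vav-Cre, against 51.3% and 49% of all genes. The lowest regulator was at -1.80 in Mx1-Cre and the lowest in Vav-Cre at -0.92. Mycn, a relative of Myc, had 198 and 199 CPM in Vav-Cre, 125, 87.5 and 145 CPM in Mx1-Cre, and 91.1, 117 and 114 CPM in wild type (0.88 ± 0.20 in Vav-Cre, adjusted p = 0.0914, edgeR).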

How the data were processed

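RNA-seq was analysed for 2 Vav-Cre knockout, 3 Mx1-Cre knockout and 3 wild type libraries, grouped by their titles. A SMARTer Ultra Low Input kit made the cDNA and a NEBNext kit the unstranded libraries, per the labels' protocols. The submitters' processing notes name mm9 and, with no versions, TopHat, SAMtools, HTSeq and edgeR. The authors deposited raw read counts per gene symbol, used for all tests but 1, and a table of CPM values (counts scaled by the authors to the library's total), which was used in the limma-trend alternative alone.

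Counts were tested in R 4.3.3 with edgeR 4.0.16 by the quasi-likelihood test. filterByExpr defaults (minimum count 10, minimum total 15) left 14086 of 23358 genes. TMM scaling and 1 model over 8 libraries with group as the only term were used. Contrasts were the mean of both lines or each line alone against wild type, and the difference of the lines. Benjamini-Hochberg adjustment ran over all tested genes, with calls under 0.05. The SE was derived from the log2 fold change and its F statistic, and levels are TMM-scaled CPM with SD. Library deviations used log2 CPM with a prior count of 2. Totals of 28689765 to 33202926 counts per library come from reads without molecular identifiers.

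The alternatives were DESeq2 1.42.0, limma 3.58.1 (voom, and trend with a pseudocount of 1), other scalings and filters, an adjusted p under 0.1, fewer groups, a replicate block and each library left out.

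Named were, per comparison and direction, called genes or else the 5 smallest p-values, the 5 highest and 5 lowest by counts, 9 fixed members and 7 other subunits. The members and lists were chosen with earlier results of these data known. Lengths and neighbours came from GRCm38 annotations by symbol, since the counts are on mm9. Promoters were from RefSeq GRCm38.p6.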

Additional observations from a re-analysis of the deposited data

How the results depend on the processing

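The count of called members was 0 in the Vav-Cre, Mx1-Cre and combined comparisons under all alternatives run, and 0 between the lines except with DESeq2, which called 1 member (Mrpl2). The cause of that difference was not tested. Leaving out each library in turn gave 0 in all 4 comparisons. With each library left out, the median log2 fold change ran from -0.22 to -0.03 in Vav-Cre, from -0.06 to 0.13 in Mx1-Cre, from -0.12 to 0.05 with both lines and from -0.31 to -0.05 between the lines. All these shifts were under the SD of the library medians within groups, pooled over the groups, 0.18. That SD is about as large as the median between the lines (-0.19) and larger than the other medians, so it does not show them to be stable. The ranges in Mx1-Cre and with both lines include both signs. The labels do not say that replicate numbers pair the libraries. Same-numbered libraries' deviations from their group means correlated at -0.24 to 0.39, over 0.1 in 2 of 7 pairs. In groups of 2 or 3 libraries such deviations depend on each other, so these correlations cannot decide whether libraries were paired. The replicate block gave 0 called members in each comparison and medians of -0.06 in Vav-Cre, 0.07 in Mx1-Cre, 0.02 with both lines and -0.12 between the lines, with 31, 54, 42 and 24 genes above 0 in that order. With library totals as scaling, 18 genes were above 0 with both lines, in place of 37. Of 1819 alternative values for 97 named gene results, 1818 kept their side of the threshold and 1 gained a call (Mrpl2 with DESeq2). None of these results was called in the main analysis, so no called direction could turn. The sign of the fold change differed from the main value in 103 of the 1819, over 33 of the 97 results, such as Mrpl18 in Vav-Cre, which ran from -0.36 to 0.12 with a library left out. Over all genes the number called moved far more, from 22 to 942 with both lines (373 in the main analysis), 58 to 1815 in Mx1-Cre (351), 5 to 596 in Vav-Cre (72) and 3 to 467 between the lines (24). The group-only fit could not be made for both lines together, which already use all libraries. Depth limits Mrpl23, with 20 to 54 counts per library, and Mrps36 most, and 2 Vav-Cre libraries give the widest errors.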
